A study of Homo sapiens with 27 samples.

Results

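The genes MT1A, MT1B, MT1E, MT1F, MT1G, MT1H, MT1X and MT2A encode metallothioneins, and SLC30A1 encodes an exporter of zinc. These 9 genes, of 30859 gene names on the main array platform, were taken by their symbol among the non-control probes, which gave 15 of 41000 probes. On a second platform, used for 1 compound, 14 of 41000 probes carried such a symbol, since 1 of the 3 MT2A probes was listed there, and with 3 other compounds, under a transcript identifier. It is included for all compounds, because its probe identifier was the same. The cells were HepG2, an established line from a human liver tumour that still makes many liver proteins. They were exposed for 48 h to 1 of 9 polycyclic aromatic hydrocarbons, compounds of fused aromatic rings that form when organic matter burns incompletely. On 3 arrays each, 27 in all, Cy5 carried RNA after naphthalene (NP), chrysene (CHR), phenanthrene (PH), benzo[k]fluoranthene (BF), 3-methylcholanthrene (3MC), indeno[1,2,3-c,d]pyrene (IND), dibenzo[a,h]anthracene (DBA), benzo[a]pyrene (BaP) or benzo[a]anthracene (BA). Cy3 always carried RNA of HepG2 cells that had received DMSO, the solvent, and with no dye swap a dye bias of a probe stays in its ratio. Doses are not given, and compounds are compared as they were applied. Whether the arrays of a compound came from separate cultures, and whether compounds shared a DMSO culture, is not stated, so the p-values measure the spread between arrays, which may be technical. IND was measured on the second platform and is set beside the other 8 compounds without a test.

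Metallothioneins are small proteins rich in cysteine that bind zinc, copper and cadmium, and the liver makes them in large amounts. Their genes are turned on by metals through the zinc sensor MTF1, which binds metal response elements near the start of the gene, and they also respond to glucocorticoids and to oxidative stress. SLC30A1 moves zinc out of the cell across the plasma membrane, and its gene is another known target of MTF1.

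In the RefSeq annotation of GRCh38.p14 the 8 metallothionein genes lie on chromosome 16 between 56608584 and 56684196, a stretch of 75.6 kb, with MT2A at one end (56608584 to 56609497) and MT1X at the other (56682470 to 56684196). MT1F lies inside it at 56657959 to 56659303, between MT1B at 56651886 to 56653204 and MT1G at 56666730 to 56668065. SLC30A1 lies on chromosome 1 at 211571568 to 211579161. The 250 bases before the start of the gene were matched in the RefSeq promoter table for 5 of the 9 genes. Those of MT2A, MT1X, MT1B and SLC30A1 are shown because MT2A rose with all compounds, MT1X is at the other end of the cluster, and MT1B and SLC30A1 carry the comparisons between compounds. Capitals mark the core of the metal response element, TGCACNC or TGCGCNC, on either strand.
MT2A, chr16:56608334-56608583, plus strand: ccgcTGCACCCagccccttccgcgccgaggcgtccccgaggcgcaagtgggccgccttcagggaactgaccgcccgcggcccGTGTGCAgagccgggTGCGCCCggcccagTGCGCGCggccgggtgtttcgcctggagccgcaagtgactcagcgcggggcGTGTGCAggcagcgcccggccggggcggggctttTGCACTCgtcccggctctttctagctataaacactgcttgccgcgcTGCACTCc
MT1X, chr16:56682220-56682469, plus strand: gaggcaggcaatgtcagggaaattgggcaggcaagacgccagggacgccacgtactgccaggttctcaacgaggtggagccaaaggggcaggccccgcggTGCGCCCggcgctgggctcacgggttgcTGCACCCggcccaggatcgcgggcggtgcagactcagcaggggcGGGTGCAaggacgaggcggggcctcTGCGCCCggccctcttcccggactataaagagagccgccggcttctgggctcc
MT1B, chr16:56651636-56651885, plus strand: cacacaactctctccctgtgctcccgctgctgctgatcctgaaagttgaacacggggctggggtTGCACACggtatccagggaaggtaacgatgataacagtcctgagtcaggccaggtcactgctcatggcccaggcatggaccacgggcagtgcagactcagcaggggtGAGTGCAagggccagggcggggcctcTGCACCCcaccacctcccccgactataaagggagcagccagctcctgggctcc
SLC30A1, chr1:211579162-211579411, minus strand: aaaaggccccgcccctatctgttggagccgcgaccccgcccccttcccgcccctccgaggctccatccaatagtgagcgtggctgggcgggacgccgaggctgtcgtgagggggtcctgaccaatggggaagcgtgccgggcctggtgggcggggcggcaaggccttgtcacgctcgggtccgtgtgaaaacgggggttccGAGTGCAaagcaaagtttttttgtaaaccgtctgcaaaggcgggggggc
The core occurred 7 times before MT2A, 8 times before MT1H, 4 times before MT1X, 3 times before MT1B and 1 time before SLC30A1. Of 35116 promoters of the same length, 24.8% held the core at least 1 time, 1.58% at least 3 times and 0.120% at least 5 times. The motif GCGTG, the core of the element bound by the aryl hydrocarbon receptor, was also searched on both strands. It occurred 3 times before SLC30A1, 1 time before MT2A and 0 times before MT1B, MT1H and MT1X, and 32.2% of all promoters held it at least 1 time. GCGTG can overlap a metal response element that is read on the other strand. These are matches of letters, and binding was not measured.

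The scanner output of the DBA, 3MC and NP arrays was dim, with median Cy5 intensities of 36 to 124 units, against 299 to 1484 units on the other 18 arrays. Across probes, r between the log2 ratios of a compound's arrays was 0.870 or more for 8 compounds. For BA, array 1 stood apart, with r of 0.181 to array 2 and 0.128 to array 3. Probes are not independent replicates. BA values that moved by more than 1.5 times without array 1 are given both ways. Of 10 markers of the HepG2 line, 9 stood above background on all 27 arrays, with ALB at the 99.1 percentile of intensity or higher, and HNF4A did so on 26. Among markers of other cells on the shared platform, the median percentile of intensity was 15.5 for PTPRC of leukocytes, 23.9 for COL1A1 and 34.9 for COL3A1 of fibroblasts, and 35.0 for PECAM1 and 35.5 for VWF of endothelium. It was 55.4 for CD3E of T cells and 67.6 for CD68 of macrophages, above background on 23 and 24 of 24 arrays. In bulk RNA a lower level per cell and fewer cells that express a gene cannot be told apart.

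Metallothionein probes were among the brightest on the arrays, and this limits what their ratios can show. A spot was taken as saturated in a channel where over 10% of its pixels were at the scanner maximum. On the DBA, 3MC and NP arrays 0 of 135 spot values of the 15 probes were saturated in Cy5, and on the other 6 compounds 154 of 270 were (57.0%). Cy3 was saturated in 5 of these 270 and in 0 of the 135. Where Cy5 was saturated on all 3 arrays and Cy3 was not, the fold change is a lower bound and is written as at least that many fold. MT1F and SLC30A1 were never saturated, and MT1B was saturated with BF only, so these genes carry the comparisons between compounds. The brightest MT2A probe shows the limit. Intensities are given less the local background. With BaP its Cy5 intensity was 64483, 63654 and 64891 units on the 3 arrays and its Cy3 intensity was 13484, 13144 and 15778 units. With BF, Cy5 read 58091, 61275 and 59415 units and Cy3 read 4266, 4760 and 4291 units. The Cy5 spots of both compounds lay near the maximum, so the larger BF ratio came with a lower DMSO signal.

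**Figure D1:**
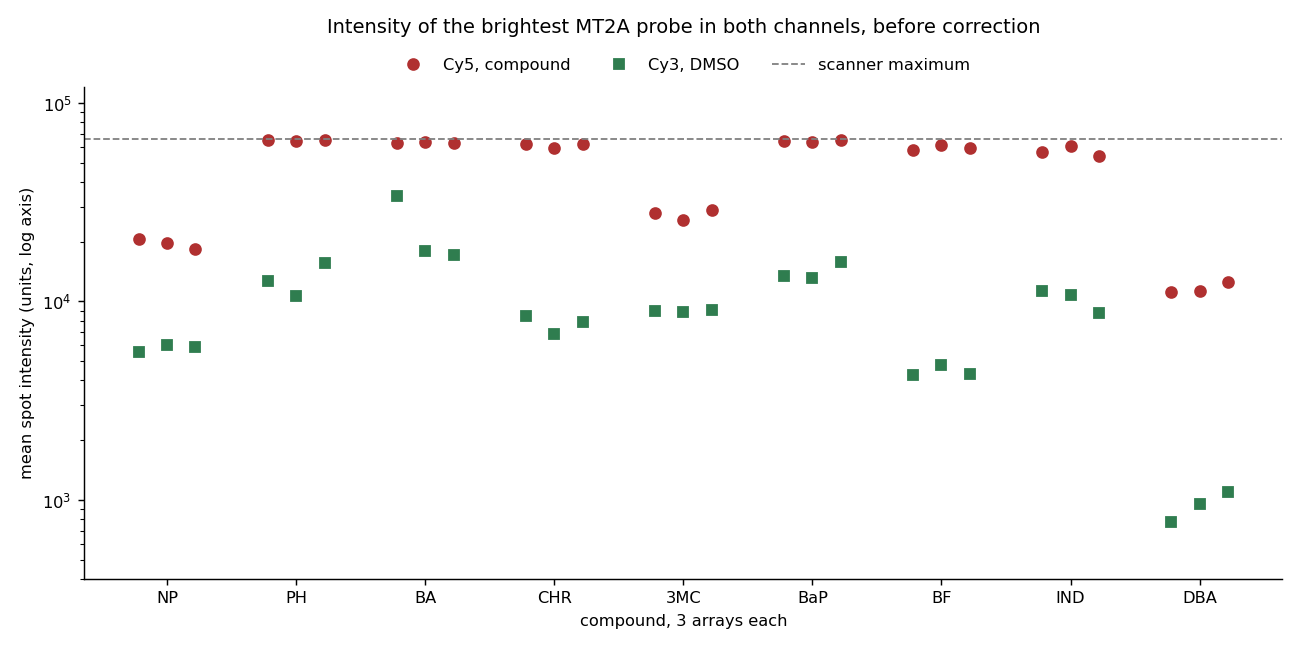
Mean spot intensity of the brightest MT2A probe in Cy5 (compound, red circles) and Cy3 (DMSO, green squares) on each of the 27 arrays. Values are in units on a log axis, less the local background and before normexp correction. The dashed line is the scanner maximum. Cy5 lay near the maximum on the 18 arrays of PH, BA, CHR, BaP, BF and IND and at 28932 units or less on the 9 arrays of NP, 3MC and DBA.

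Several of the metallothionein probes can bind more than 1 gene, since the copies are alike. The probe annotation lists MT1M beside MT1A for the MT1A probe, MT1L and MT1X beside MT1H for the brightest MT1H probe, and MT1A and MT1H beside MT1X for the brightest MT1X probe. In all, 4 of the 15 probes list more than 1 gene, so values of MT1A, MT1H and MT1X cannot be assigned to 1 gene with certainty. Only RefSeq transcripts in the annotation were matched to a gene, and its other records were not. A probe said to list 1 gene may thus also match others. Values below are log2 ratios of compound over DMSO, as the mean ± SD of 3 arrays, for the brightest probe of a gene unless another is named. A gene rose or fell where limma's moderated test gave an adjusted p under 0.05 over all tested probes and the change was at least 1.5-fold. Loess, which was used to normalise each array, gave lower values for the 9 genes than centring each array on its median, except for SLC30A1 with NP (0.22 by loess and -0.033 centred). The median difference over the 9 genes was 0.11 with NP, 0.24 with 3MC, 0.27 with PH, 0.36 with BaP, 0.46 with CHR, 0.47 with BA, 0.49 with IND, 0.67 with DBA and 0.90 with BF.

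Of the 9 genes, 5 to 7 rose with DBA, 3MC, NP, CHR, BF and PH, and 1 or 2 were called higher with BaP, BA and IND. With DBA 7 genes rose and 1 fell, where 2.15% of all tested probes rose and 5.48% fell. 3MC raised 7 and lowered 0, against 2.46% and 7.28% of all probes. NP raised 6 and lowered 0, against 4.74% and 11.7%. These 3 compounds had no saturated spot among the 15 probes. With BF, 7 genes rose and 1 fell, where 13.7% of all probes rose and 19.5% fell. CHR likewise raised 7 and lowered 1, against 9.33% and 11.6%. PH raised 5 and lowered 1, against 8.15% and 7.73%. In these 3 comparisons 7, 4 and 4 of the 9 ratios were lower bounds. BaP raised 2 genes, MT2A and SLC30A1, and lowered MT1E and MT1F, where 11.1% of all probes rose and 10.2% fell. IND raised MT1A and MT2A and lowered MT1F, against 8.89% and 12.3%. With BA, MT2A rose and MT1F fell, against 1.69% and 2.58%, and both the same without array 1. Of the 9 ratios 5 were lower bounds with BaP, 4 with BA and 2 with IND, so a rise of a gene not called there may be hidden by saturation. Of the 10 HepG2 markers, 10 fell with BF, 8 with IND and 7 with BaP, and 0 rose with these. With CHR 5 fell and 2 rose, with NP 4 and 2, with DBA 4 and 1, with 3MC 2 and 2, with PH 2 and 1 and with BA 1 and 0. Under median centring 7 fell with BF, 6 with IND, 4 with BaP and 1 with CHR, while with DBA 5 rose and 2 fell. Their part in the counts of the 9 genes was not tested. Under median centring 4 genes rose and 1 fell with BaP, 6 rose and 1 fell with IND, 5 rose and 1 fell with BA and 8 rose and 0 fell with DBA.

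The median log2 ratio of the 9 genes was 1.61 with DBA, 1.31 with NP and 0.85 with 3MC, where no spot was saturated. It read 1.25 with BF, 0.90 with CHR, 0.62 with PH, 0.35 with IND, 0.17 with BaP and 0.14 with BA, or 0.27 with BA without array 1. For BF, CHR, BaP and BA the median gene itself was saturated, and with PH a saturated gene lay below the median, so these medians are lower bounds and give no order against the unsaturated ones. Over all tested probes the median lay between -0.0068 and 0.0086 for the 9 compounds.

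MT2A, a widely expressed human metallothionein, rose with all 9 compounds. The 3 arrays gave 3.19, 2.87 and 2.63 with DBA, 2.50, 2.29 and 2.34 with NP, and 1.60, 1.62 and 1.78 with 3MC. These unsaturated ratios correspond to 7.44-fold, 5.19-fold and 3.18-fold, and the DBA and NP arrays do not overlap with those of 3MC. With BF the arrays read 3.28, 3.18 and 3.23, at least 9.38-fold, and with CHR 2.90, 3.01 and 2.85, at least 7.58-fold. PH gave 2.28, 2.45 and 1.88, at least 4.60-fold. IND gave 1.78, 1.98 and 2.18, at least 3.95-fold, and BaP gave 2.05, 2.01 and 1.82, at least 3.89-fold. In these 5 compounds every array lay above every array of BA, which read 0.32, 1.54 and 1.53. Cy5 was saturated on all 3 arrays of BA too, so both sides are lower bounds and give no order. The BA mean was 1.13 ± 0.70, at least 2.19-fold, and 1.53 without array 1. Limma's adjusted p for the 9 tests ran from 2.88e-14 (BF) to 7.62e-06 (BA). With BA fitted by itself the mean of 1.13 did not pass (adjusted p 0.161 by limma). The other MT2A probes also rose with all 9 compounds. Their means were 1.44 and 1.65 with BaP, where the brightest probe had 1.96, and 3.10 and 3.33 with BF. Between any pair of the 3 probes the means differed by at most 0.52.

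MT1X, MT1A and MT1H are measured by probes that list each other's genes or a shared one. MT1X had 1.63 ± 0.17 with DBA, 1.23 ± 0.09 with NP and 0.68 ± 0.04 with 3MC, all of which rose. It also rose with BF (1.25 ± 0.12, at least 2.38-fold), CHR (1.24 ± 0.14, at least 2.35-fold) and PH (0.74 ± 0.02, at least 1.67-fold). It was not called with IND (0.58 ± 0.10), BaP (0.34 ± 0.04) or BA (0.26 ± 0.22, 0.38 without array 1). Cy5 was saturated on all 3 arrays of these 3 compounds, and their adjusted p by limma was 0.00496 or less, so the size of the change, which is a lower bound there, kept them from being called. The other MT1X probe, which lists MT1X alone, rose with the same 6 compounds. Its means differed from those of the brightest probe by 0.0013 to 0.39.

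MT1A rose with 7 of 9 compounds. The means were 1.86 ± 0.23 with DBA, 1.77 ± 0.11 with NP and 1.05 ± 0.12 with 3MC, and 0.77 ± 0.06 with IND, where 2 of 3 Cy5 spots were saturated. BF gave 1.31 ± 0.14 (at least 2.48-fold), CHR 1.16 ± 0.07 (at least 2.24-fold) and PH 0.78 ± 0.15 (at least 1.72-fold). BaP was at 0.17 ± 0.08 and BA at 0.28 ± 0.32, or 0.46 without array 1, and neither was called, but Cy5 was saturated on all 3 arrays of both, so these are lower bounds. MT1H rose with 5 compounds, from 1.61 ± 0.19 with DBA and 1.31 ± 0.14 with NP to 0.69 ± 0.06 with 3MC, and at least 2.22-fold with BF and 1.87-fold with CHR. IND (0.49 ± 0.02) was not called. PH (0.56 ± 0.09), BA (0.14 ± 0.23, 0.27 without array 1) and BaP (0.11 ± 0.07) were not called either, and these are lower bounds with Cy5 saturated on all 3 arrays. The other MT1H probe rose with 7 compounds and had higher means throughout, by 0.14 to 0.40.

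MT1B, whose probe lists no other gene, was saturated only with BF. The arrays gave 1.81, 1.62 and 1.44 with DBA, 1.58, 1.30 and 1.30 with NP and 0.83, 0.82 and 0.91 with 3MC. In this dim set the 3MC arrays lay below all arrays of DBA and NP, whose values overlap. In the other set BF gave 1.42, 1.57 and 1.56, at least 2.87-fold. PH read 0.70, 0.59 and 0.57 and CHR 0.68, 0.56 and 0.57, and both rose. These small increases lie close to the 1.5-fold threshold. Without PH array 1 the PH mean of 0.62 became 0.58, and without CHR array 1 the CHR mean of 0.60 became 0.57, and neither was called then. IND (0.29, 0.31 and 0.31), BA (0.14, 0.05 and 0.14) and BaP (-0.04, -0.14 and -0.03) were not called. The BaP mean of -0.07 turned to 0.28 under median centring.

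MT1E was called with 3 of 9 compounds. It rose with DBA (0.75 ± 0.06) and BF (0.95 ± 0.11, at least 1.93-fold). It fell with BaP, where the arrays read -0.55, -0.63 and -0.63 and limma's adjusted p was 1.29e-08. The BaP decrease of 1.52-fold was not called under median centring (-0.23) nor without saturated spots (-0.57). NP (0.56 ± 0.14), 3MC (0.44 ± 0.06), PH (0.38 ± 0.08) and CHR (0.29 ± 0.06) were not called by loess but passed under median centring, at 0.67, 0.70, 0.70 and 0.81. In the authors' deposited table PH also passed (0.60), and DBA, at 0.46, did not. BA had -0.28 ± 0.17 and IND -0.15 ± 0.07, and both turned positive under median centring, at 0.22 and 0.36. A second, dimmer MT1E probe fell with BaP too (-0.62 ± 0.11) but was at 0.02 ± 0.06 with DBA, and was called with BaP only. On the DBA arrays this dimmer probe read 34 to 43 units in Cy3 and 37 to 46 units in Cy5 after background subtraction. These lie under the offset of 50 units, and the authors' table holds no DBA value for the probe. The DBA increase of MT1E thus rests on the brightest probe, as the other was too dim there to show a rise.

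MT1F went the other way. It fell with 7 of 9 compounds and rose with 0, and no spot of its probe was saturated. With BaP the arrays gave -3.09, -3.35 and -3.23, a decrease of 9.35-fold (adjusted p 5.82e-10 by limma). IND gave -2.15, -2.40 and -2.29, a decrease of 4.86-fold, and CHR -2.44, -2.11 and -2.00, a decrease of 4.55-fold. BF gave -1.83, -1.74 and -1.63, a decrease of 3.32-fold. The 12 arrays of these 4 compounds all lay at -1.63 or lower, and the BaP arrays lay below the others. PH gave -0.83, -0.93 and -0.87, a smaller decrease of 1.84-fold (adjusted p 0.00705 by limma). With BA the arrays read 0.30, -1.87 and -1.93, so that array 1 lay on the other side of 0. The BA mean was -1.17 ± 1.27 and was -1.90 without array 1, and it did not pass with BA fitted by itself (adjusted p 0.263 by limma). DBA gave -1.20, -0.82 and -0.20, with a mean of -0.74 ± 0.51 (adjusted p 0.0386 by limma). This call was lost without DBA array 1 (-0.51), without DBA array 2 (-0.70) and under median centring (-0.20). 3MC (-0.09, -0.16 and -0.63) and NP (-0.43, 0.13 and 0.09) were not called, with adjusted p of 0.443 and 0.863 by limma. The means of the dim set, -0.07 with NP, -0.29 with 3MC and -0.74 with DBA, were the smallest in size. For MT1F, differences between these and the other compounds cannot be told apart from the scan set.

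MT1G had 2 probes that differed in direction, though both list only MT1G. The brightest gave 1.75, 1.54 and 1.41 with DBA, 1.51, 1.24 and 1.30 with NP and 0.85, 0.81 and 1.00 with 3MC. It also gave 1.16, 0.95 and 1.30 with CHR and 0.98, 0.90 and 0.97 with PH. It rose with these 5 compounds and, at least 3.11-fold, with BF, where the arrays read 1.53, 1.64 and 1.74. IND (0.33, 0.39 and 0.34) and BA (0.32, 0.33 and 0.31) were not called, nor was BaP (0.47, 0.43 and 0.40), where Cy5 was saturated on all 3 arrays and the ratio is a lower bound. The other probe gave -2.12, -2.19 and -1.54 with BaP, where Cy3 was saturated on all 3 arrays, so the decrease was at least 3.87-fold. BF gave -2.05, -1.48 and -1.47, CHR -1.66, -1.22 and -1.38 and IND -1.08, -1.41 and -1.44, and with all of these it fell. DBA (1.37, 1.12 and 1.08) and NP (0.95, 0.96 and 0.88) raised it, as they raised the brightest probe. With BA it read 0.12, -1.79 and -1.78 and fell, again with array 1 apart. 3MC (0.30 ± 0.02) and PH (0.01 ± 0.08) were not called on this probe. It rose only with compounds of the dim set and fell only with compounds of the other set. Its direction thus cannot be told apart from the scan set. The means of the MT1G probes differed by 0.38 to 3.30 over the 9 compounds, with the largest gap for BF. Taking the mean of both probes gave -0.76 with BaP, -0.14 with CHR and -0.015 with BF, so the direction of MT1G with these compounds depends on the probe.

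**Figure D2:**
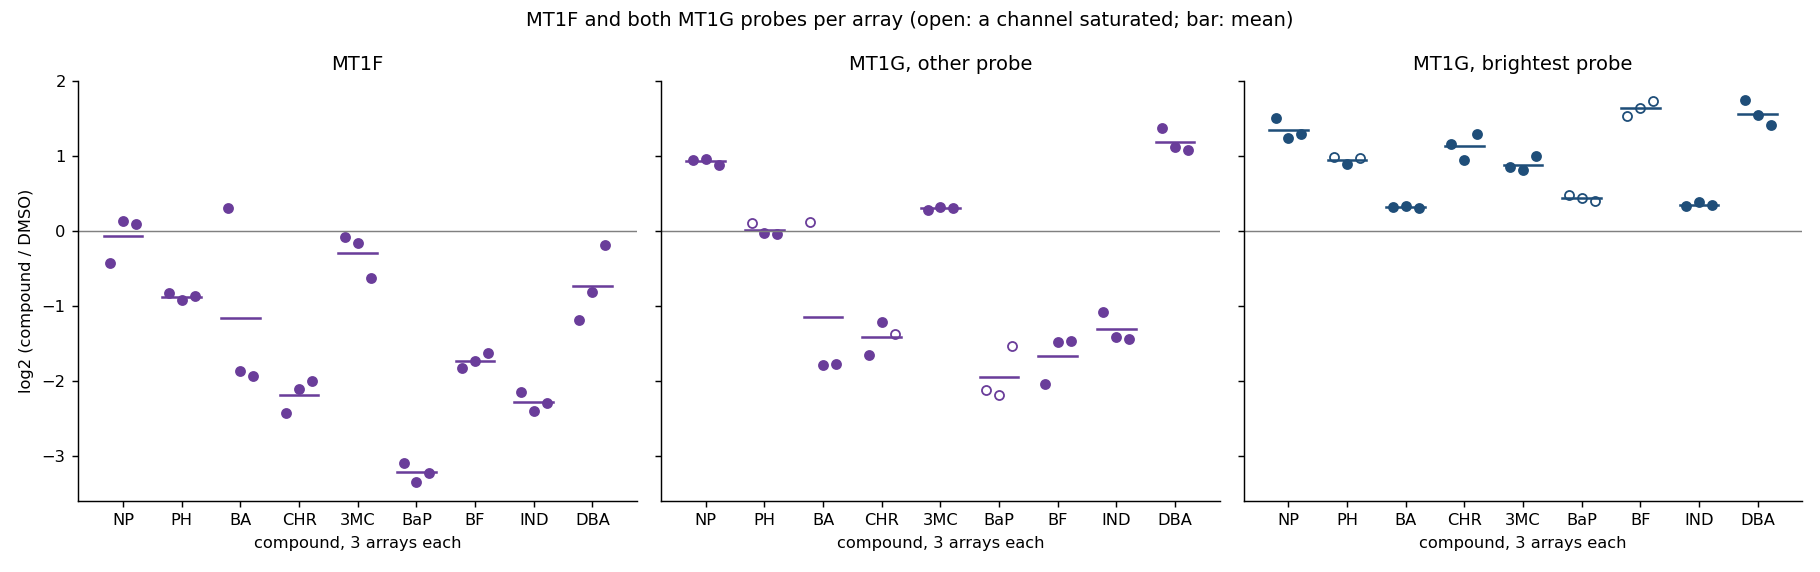
Log2 ratio of compound over DMSO per array for MT1F, the other MT1G probe and the brightest MT1G probe, with bars at the mean of 3 arrays and open points where a channel was saturated. MT1F and the other MT1G probe lay under -1 on all arrays of CHR, BaP, BF and IND, while the brightest MT1G probe lay above 0 on all 27 arrays.

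SLC30A1, the zinc exporter, was highest with 3MC and BaP. It rose with 3MC, where the arrays gave 1.03, 0.98 and 1.05 (2.03-fold, adjusted p 1.60e-12 by limma). It rose with BaP, at 0.82, 0.91 and 0.80 (1.79-fold), and with CHR, at 0.66, 0.59 and 0.55 (1.52-fold). The CHR call was lost without CHR array 1, which left a mean of 0.57, and with array weights (0.58). By loess the arrays of 3MC lay above those of all other compounds, and the BaP arrays lay above those of the remaining 7. The difference of 0.18 between 3MC and BaP did not pass (adjusted p 0.0583 by limma). Under median centring the means were 1.05 with 3MC and 1.09 with BaP, and these compounds lie in different scan sets, so they have no firm order. DBA (0.41, 0.40 and 0.40), IND (0.21, 0.26 and 0.35), NP (0.20, 0.29 and 0.15) and BF (0.22, 0.21 and 0.22) were above 0 on every array but were not called. DBA and BF passed under median centring, at 0.69 and 0.68, while NP turned to -0.033. PH gave -0.11, 0.03 and -0.05, and BA gave 0.38, 0.03 and -0.01, with means of -0.05 and 0.13, the latter 0.013 without array 1. BaP raised SLC30A1 and MT2A, and under median centring also MT1G (0.80) and MT1X (0.72).

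The 8 compounds on the shared platform differed for every one of the 15 probes by limma's F test, with adjusted p of 1.01e-06 or less, as 86% of all probes on the array did. All 28 pairs were then compared with p-values adjusted over pairs and probes, and 16 (MT1F) to 24 (MT1B) passed for a gene's brightest probe. Over all probes and pairs 50.9% passed, from 19.4% for DBA and 3MC to 65.9% for NP and BF. Compounds next to each other in the order mostly did not pass, with 1 to 3 of 7 neighbouring pairs passing for a gene. Within the dim set, where 35.1% of all probes passed for DBA and NP and 28.8% for 3MC and NP, MT1B was higher with DBA than with NP by 0.23 (95% interval 0.05 to 0.41, adjusted p 0.0328 by limma) and higher with NP than with 3MC by 0.54 (0.36 to 0.72). Under median centring the former difference was 0.79. SLC30A1 had 3MC above DBA by 0.62 (0.46 to 0.78) and DBA above NP by 0.19 (0.03 to 0.35, adjusted p 0.0486 by limma), which were 0.36 and 0.72 under median centring. For MT1F no pair of this set passed, and the interval for DBA minus 3MC was -1.22 to 0.34. In the fit without BA array 1, whose spread is smaller, MT1F was lower with DBA than with NP by 0.66 (adjusted p 0.00573 by limma). In the other set MT1B was at about the same mean with PH and CHR, a difference of 0.02 with an interval of -0.16 to 0.20, where 55.9% of all probes passed.

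Some pairs of compounds differ by a named change in structure. CHR and BA are isomers that join the same rings in another arrangement, and 50.4% of all probes passed between them. CHR exceeded BA by 0.49 for MT1B (95% interval 0.31 to 0.68, adjusted p 5.27e-05 by limma) and by 0.47 for SLC30A1 (0.30 to 0.63), or by 0.51 and 0.59 without BA array 1. MT1F was lower with CHR by 1.02 (0.24 to 1.80), but by 0.28 without BA array 1, which did not pass (adjusted p 0.279 by limma). BaP and BF are also isomers, with 59.1% of all probes passing. SLC30A1 was higher with BaP than with BF by 0.63 (0.46 to 0.79), or by 0.41 under median centring, and MT1F was lower with BaP by 1.49 (0.71 to 2.27). MT1B was at least 1.59 higher with BF than with BaP, its BF spots being saturated. The DMSO channel of these genes also differed, given as mean log2 over the array's median probe. MT1F had 6.19 on BaP arrays and 4.79 on BF arrays, MT1B had 6.08 and 4.44, and SLC30A1 had 3.80 and 3.34. The part of these DMSO levels in the differences between BaP and BF was not tested. DBA carries a further fused ring on the frame of BA, and 38.8% of all probes passed. MT1B was higher with DBA by 1.51 (1.33 to 1.69), and SLC30A1 by 0.27 (0.11 to 0.43), or by 1.53 and 0.39 without BA array 1. For MT1F the DBA and BA means differed by 0.43 with an interval of -0.35 to 1.21, and by 1.16 without BA array 1, which passed (adjusted p 9.54e-05 by limma). PH has more fused rings than NP, and 54% of all probes passed. MT1B was higher with NP by 0.77 (0.59 to 0.95) and SLC30A1 by 0.26 (0.10 to 0.42), the latter turning to -0.031 under median centring. NP and PH, DBA and BA lie in different scan sets, so these differences and the set cannot be told apart.

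The DMSO channel of the same genes was not constant between arrays of different compounds. As log2 over the array's median probe, DMSO cells had MT1B at 3.95 to 4.32 on the DBA arrays and at 6.05 to 6.10 on the BaP arrays, which do not overlap. MT1A had 4.20 to 4.47 on DBA arrays and 6.41 to 6.50 on BaP arrays. The brightest MT2A probe was lowest on CHR arrays, at 2.71 to 3.06, and BF arrays, at 2.83 to 3.03, and highest on 3MC arrays, at 5.24 to 5.45. On the other MT2A probes the BaP arrays were highest, with means of 5.24 and 5.01 against 4.83 and 4.68 for 3MC. MT1F had DMSO levels of 5.97 to 6.34 on BaP arrays and 5.45 to 5.77 on NP arrays, and its means were 4.91 on IND, 4.85 on CHR and 4.79 on BF arrays. SLC30A1 was at 4.16 to 4.22 on PH arrays and at 2.04 to 2.36 on DBA arrays. The ratio contains the DMSO level, and the part of the DMSO level in the differences between compounds was not tested.

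**Figure D3:**
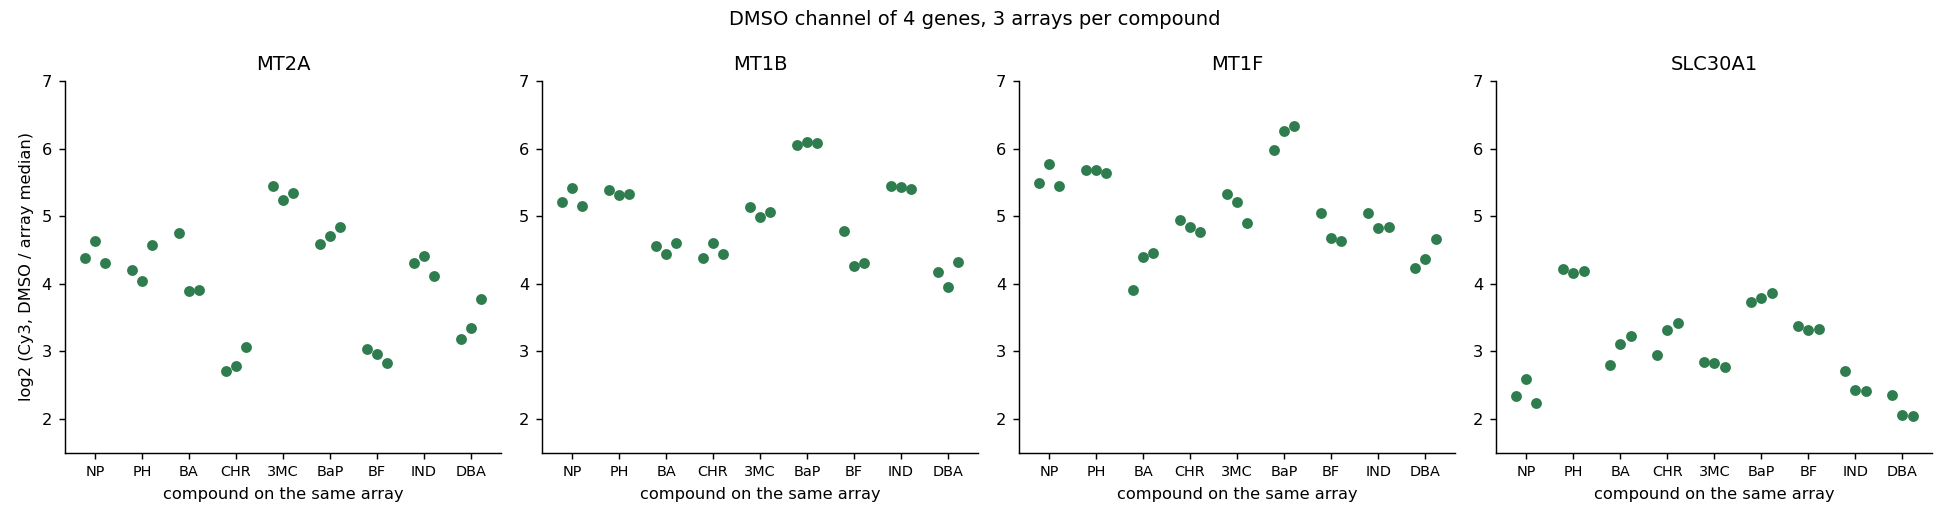
Cy3 signal of DMSO cells for MT2A, MT1B, MT1F and SLC30A1 on each array, by the compound hybridised on the same array. Values are background-corrected with the offset of 50 units, which lowers levels most on the dim DBA arrays, and are given as log2 over the array's median probe. MT1B ran from 3.95 on a DBA array to 6.10 on a BaP array, and the brightest MT2A probe was lowest on the CHR and BF arrays.

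Over the 24 arrays of the shared platform, the genes whose ratios were most like those of MT1X by Pearson's r were MT1H (0.976), MT1L (0.935), MT1A (0.931) and MT1G (0.922). MT1L is a further metallothionein-like gene of the cluster, annotated with a non-coding transcript. Whether its probe also binds MT1X or MT1H was not tested. For MT2A they were AKR1B1, which encodes aldose reductase (0.885), MT1L (0.870), GCNT3 (0.857) and the stress cytokine GDF15 (0.847). For SLC30A1 they were HHAT (0.947), GAMT, an enzyme of creatine synthesis (0.895), SYTL1 (0.893) and RTL8C (0.884), with 0 metallothioneins among them. These values describe likeness only. The brightest MT1X probe also lists MT1A and MT1H, so their likeness to it may come from shared targets. Cy5 of the MT1X and MT2A probes was saturated on all arrays of PH, BA, CHR, BaP and BF, where their ratios are lower bounds. The 3 arrays of a compound share a treatment and all arrays share the dye orientation, and without BA array 1 the r of GDF15 with MT2A was 0.771.

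Other metallothionein genes on the array did not move as a block. Among MT1L, MT1M, MT1JP, MT3 and MT4, MT1L rose with 6 of the 9 compounds, with 1.55 for DBA, 1.20 for NP and 0.71 for 3MC. The pseudogene MT1JP fell with BaP (-2.13), CHR (-0.84) and BA (-0.69), and MT1M fell with BaP (-1.13), 3MC (-0.77) and IND (-0.72). MT3 fell with IND (-1.16), and MT4 was called with no compound. Over these 5 genes the counts were 1 higher and 0 lower with DBA, NP, PH and BF, 1 and 1 with 3MC and CHR, 0 and 2 with BaP and IND, and 0 and 1 with BA. Their median ratio ran from -0.35 with IND to 0.34 with BF.

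The other zinc exporters of the SLC30 family did not rise with SLC30A1. Of 9 such genes tested (8 with IND), 1 rose with CHR, SLC30A6 at 0.60, and 0 rose with each of the other 8 compounds. SLC30A10, a manganese and zinc exporter, fell with BF (-1.50), PH (-1.34), IND (-1.02), BaP (-0.94) and CHR (-0.93). SLC30A6 fell with NP (-1.94) and 3MC (-1.27), and SLC30A9 with DBA (-0.67), PH (-0.64) and NP (-0.59). The shares of all probes called per compound, given with the counts of the 9 genes, are the background of the list counts. The median over the exporters lay between -0.34 with NP and 0.27 with CHR. Of 14 zinc importers of the SLC39 family, BF lowered 8 and raised 0, where 19.5% of all probes fell, with SLC39A5 at -3.42, SLC39A3 at -2.91 and SLC39A7 at -2.26, and a median of -1.03, and under median centring 7 fell and 2 rose. CHR lowered 5 and raised 2, BaP lowered 4 and raised 2, and IND lowered 4 of 13 and raised 0. Under median centring CHR lowered 3 and raised 2, BaP lowered 4 and raised 4, and IND lowered 4 and raised 1. SLC39A11 fell with CHR (-2.87), BaP (-2.04), BF (-1.55), DBA (-1.44), IND (-1.34) and 3MC (-0.97). NP lowered and raised 0 of the importers, and at most 1 went in each direction with DBA, 3MC, PH and BA. With centring NP lowered 1, and DBA and BA each raised 2 and lowered 1. SLC39A4, an importer of dietary zinc, rose with PH (1.33), BaP (0.78), 3MC (0.73) and CHR (0.61). SLC39A10 rose with BaP (1.21), CHR (1.06) and BA (0.60).

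Genes of the metal sensor and of copper handling rose in part. BaP raised 5 of 11 and lowered 1, where 11.1% of all probes rose, with CCS, the copper chaperone of superoxide dismutase, at 1.53 and MTF1 itself at 0.65. BF raised 4 and lowered 2, with MTF1 at 0.79 and the copper exporter ATP7B at -1.25. IND raised 2 of 10, MTF1 at 0.81 and SCO2 at 0.92, and lowered ATP7B (-0.86). CHR raised 3 and lowered 1, 3MC raised CCS (0.71) and NP lowered SLC31A2 (-0.98). MTF1 was not called with DBA (0.01), NP (0.07) or 3MC (-0.14), which form the dim set, nor with PH or BA. For MTF1, differences between the dim set and BaP, BF and IND cannot be told apart from the scan set. In the comparison with DBA 0 of 11 were called in either direction, as with PH and BA, but under median centring 4 rose with DBA and 1 with BA.

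Of 9 genes known to respond to metal and oxidative stress, 2 to 8 rose with a compound. CHR raised 8, where 9.33% of all probes rose, BF 7 (13.7%), IND 7 (8.89%), PH 6 (8.15%) and BaP 6 (11.1%). DBA raised 4 (2.15%), NP 4 (4.74%), 3MC 3 (2.46%) and BA 2 (1.69%), and 1 fell, with NP. SRXN1, which repairs oxidised peroxiredoxins, and TXNRD1, a thioredoxin reductase, rose with all 9 compounds. SRXN1 ran from 0.64 with 3MC to 3.31 with BF, and TXNRD1 from 0.59 with BA to 2.30 with IND. HMOX1, haem oxygenase, rose with IND (3.66, Cy5 saturated on 3 of 3 arrays), BF (1.31) and CHR (0.71) and fell with NP (-0.84). HSPA6, a stress-inducible heat shock protein, rose only with NP (1.84) among these 9 compounds. The medians of the list were 1.36 with IND, 1.31 with BF, 0.93 with CHR, 0.92 with PH and 0.89 with BaP, against 0.14 with BA and 0.01 with 3MC.

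Of the glucocorticoid receptor NR3C1 and 8 of its targets, 0 to 7 were called with a compound. FKBP5, induced by glucocorticoids in many cells, was not called with any compound and lay between -0.40 with BaP and -0.01 with PH. TSC22D3, another such gene, lay between -0.24 with BF and 0.25 with NP and was not called either. FKBP5 and TSC22D3 were named after their values were seen and do not stand for the list. Further targets of the list, not named here, rose or fell with BF. DUSP1, a phosphatase that also responds to stress, rose with PH (1.85), BF (1.83), IND (1.57), BaP (1.56), CHR (1.23), NP (0.81) and BA (0.61). NR3C1 itself rose with BF (1.61), CHR (0.85) and IND (0.83). With DBA and 3MC 0 of the 9 genes were called in either direction, and BF raised 4 and lowered 3. CHR raised 2 and lowered 1, IND 2 and 1 of 8, PH 1 and 1, BA 2 and 0, BaP 1 and 0 and NP 2 and 0. Under median centring NP gave 0 and 1 and BaP 3 and 0. A count of 1 of 9 lies near the share of all probes, such as 11.1% higher with BaP and 11.6% lower with CHR. The lists are described by counts and medians, without a test of the list.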

How the data were processed

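RNA of exposed and DMSO-treated HepG2 cells was hybridised to 27 arrays of 2 colours, 3 per compound. The deposited scanner files give mean spot and background intensity per channel and the percent of saturated pixels, as the authors' scanner software wrote them, per the file headers. The deposited value tables give log2 ratios of the authors, with centring and filters not given in the sources used here. Of their 27 columns 20 could be tied to an array (lowest r 0.657), and these served as an alternative. Background was corrected with normexp (offset 50), ratios were normalised by loess within each array, and spots of a probe were averaged, in limma 3.58.1 (R 4.3.3). Probes over 2 background SDs on 2 of 3 arrays of a compound were tested, 40973 on the shared platform and 30446 on that of IND, with 1 mean per compound, lmFit and eBayes and Benjamini-Hochberg adjustment. Pairs of compounds were adjusted over 28 pairs and all probes. The fit was tested on simulated data. The number of arrays limits the precision. Named are the 9 genes, the 4 genes most like each of MT1X, MT2A and SLC30A1, and up to 4 called members per list and compound by size, with their values for other compounds. FKBP5, TSC22D3 and MT4, called with no compound, were named after their values were seen. The genes and lists were chosen with earlier results of these data known. Alternatives were median centring, other background and filter settings, array weights, a replicate block and leaving out arrays. Replicate numbers did not pair the arrays.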

Additional observations from a re-analysis of the deposited data

How the results depend on the processing

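Of the counts of the 9 genes called per compound, 161 recomputed values stayed within 1.5 times the reported count and 14 did not. Median centring gave 6 with BA and 7 with IND. Leaving out saturated spots gave 2 with BaP (of 4 genes with a value), 4 with CHR (of 5), 3 with PH (of 5), 1 with BA (of 5) and 1 with BF (of 2), where fewer genes were tested. A separate fit gave 0 with BA. The adjusted p alone gave 6 with BA and 9 with IND, and a 2-fold threshold 2 with BaP, 3 with 3MC, 5 with CHR and 1 with PH. Leaving out 1 array gave 4 to 4 with BaP, 7 to 8 with DBA, 7 to 7 with 3MC, 6 to 7 with NP, 6 to 8 with CHR, 5 to 7 with PH, 2 to 2 with BA, 8 to 8 with BF and 3 to 4 with IND. Single genes turned direction in 12 of the recomputed values. Median centring gave 0.28 for MT1B with BaP, -0.033 for SLC30A1 with NP, and 0.22 and 0.36 for MT1E with BA and IND. The mean of a gene's probes gave MT1G -0.76 with BaP, -0.14 with CHR, -0.42 with BA, -0.015 with BF and -0.48 with IND. The authors' values gave 0.080 for MT1F with NP and -0.024 for MT1H with BA, and leaving out 1 NP array gave -0.17 to 0.11 for MT1F, positive without array 1. Except for the probe means and the left-out arrays, the cause was not tested.

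With the replicate block the counts were 4 with BaP, 7 with DBA, 7 with 3MC, 6 with NP, 8 with CHR, 6 with PH, 2 with BA and 8 with BF. MT1F with DBA lost its call there (adjusted p 0.0501 by limma). Deviations of arrays with the same number correlated at a mean of 0.0047 over 84 pairs, so the block is no evidence of pairing. No block could be fitted for IND alone. Saturation limits MT1A, MT1H, MT1X and MT2A on 15 to 18 arrays, the brightest MT1G probe on 8, MT1E on 4 and MT1B on 3.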
